A study of Mus musculus with 2 samples.

Results

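Trophectoderm, the outer epithelium of the mouse blastocyst, was split here by its content of H19, a long noncoding RNA. Barcodes of the blastocyst library were kept at 1000 or more unique molecular identifiers (UMIs, each standing for 1 captured RNA molecule), 500 or more detected genes and at most 25% of UMIs from mitochondrial genes. A kept barcode was called trophectoderm when the UMIs of Krt18, Tspan8, Dppa1 and Gata3 summed to 5 or more and to at least 2 times both the epiblast sum (Nanog, Tdgf1, Sox2, Fgf4, Klf2) and the primitive endoderm sum (Gata4, Gata6, Sox17, Pdgfra). This gave 374 trophectoderm cells among 1097 kept and 1288 deposited barcodes of the library, and 6834 barcodes in the whole series. Of the 374 cells, 140 (37.4%, exact 95% interval 32.5 to 42.6) had 3 or more H19 UMIs and are called H19-positive. A further 184 cells (49.2%) had 0 and are called H19-negative, and 50 (13.4%) had 1 or 2 and belonged to neither side.

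The series holds 1 single-cell library of polyadenylated RNA from whole embryos of embryonic day 4.5, from B6C3F1 mice with no treatment or allele named, and 1 from embryoids. Embryoids are aggregates of embryonic stem cells from the Lifeact RFPruby strain and XTE cells, which were reprogrammed from Gata6H2B:Venus stem cells, joined for 48 h and then cultured for another 48 h. Both sides of the comparison come from the blastocyst library alone, so no test between them is possible: cells of 1 library are not replicates, and the intervals below cover counting error only. The labels give no embryo of origin, so a difference between embryos pooled in the library and a difference between cells of 1 embryo cannot be told apart.

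H19 is an imprinted gene, transcribed from the maternal chromosome, and its neighbour Igf2, a growth factor, is transcribed from the paternal one. Both genes share enhancers and an imprinting control region between them. Trophectoderm has a polar part, which lies over the inner cell mass and keeps dividing under FGF4 from the epiblast, and a mural part around the cavity, whose cells leave the mitotic cycle and become giant cells at implantation.

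In the GRCm38 annotation (GENCODE vM21; GRCm38 is the same assembly as mm10) H19 spans chr7:142575529-142578143 on the minus strand and Igf2 spans chr7:142650766-142666816, with 72.6 kb between the gene bodies. H19 also carries the hairpin of the microRNA miR-675 (chr7:142577064-142577147), which lies in an exon of 3 of the 7 annotated H19 transcripts. The mature strands are shown because they are cut from the H19 transcript; they come from RefSeq (GRCm38.p6), with the seed (bases 2 to 8) in capitals. A library of polyadenylated RNA counts the H19 transcript and not these products.
mmu-miR-675-5p: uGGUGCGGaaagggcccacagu
mmu-miR-675-3p: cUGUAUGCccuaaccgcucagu

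H19 chose the sides, so its own level is a description. H19-positive cells held from 3 to 217 H19 UMIs with a median of 24, and their 10 highest cells carried 28.2% of the H19 UMIs of that side. Just inside the threshold, 5 cells had exactly 3 UMIs, and just outside it, 15 had exactly 2. After every cell was thinned at random to 3000 UMIs, 41.4% of trophectoderm cells (36.2 to 46.8) still had an H19 UMI, against 2.95% of epiblast cells (1.20 to 5.99) and 9.17% of primitive endoderm cells (6.39 to 12.6) chosen by the mirrored marker rules. As sequenced, an H19 UMI was seen in 50.8%, 5.93% and 16.9% of the same classes, at medians of 8653, 9926 and 9966 UMIs per cell. Trophectoderm was thus the lineage in which H19 was seen most often, and a large part of its cells had none at this depth.

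Total UMIs of the sides were close but not equal. The median H19-positive cell had 9721.5 UMIs (quartiles 7210 to 13368.5) and 3118 genes, the median H19-negative cell 7978 UMIs (5800 to 11765.8) and 2787 genes, a ratio of 1.22 in UMIs. Cells of 1 or 2 H19 UMIs had a median of 7893. Mitochondrial genes gave a median of 11.4% of UMIs in H19-positive and 12.02% in H19-negative cells, and 4 and 7 cells of the sides had under 1%. In 5 equal strata of total UMIs, from the shallowest to the deepest, 29.3%, 25.3%, 44.6%, 41.3% and 46.7% of trophectoderm cells were H19-positive. Thinned to 3000 UMIs, the share with any H19 UMI was 42.9%, 34.7%, 44.6%, 40.0% and 45.3% over the same strata. All ratios below were therefore also taken with total UMIs matched over the strata and in thinned cells.

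**Figure D1:**
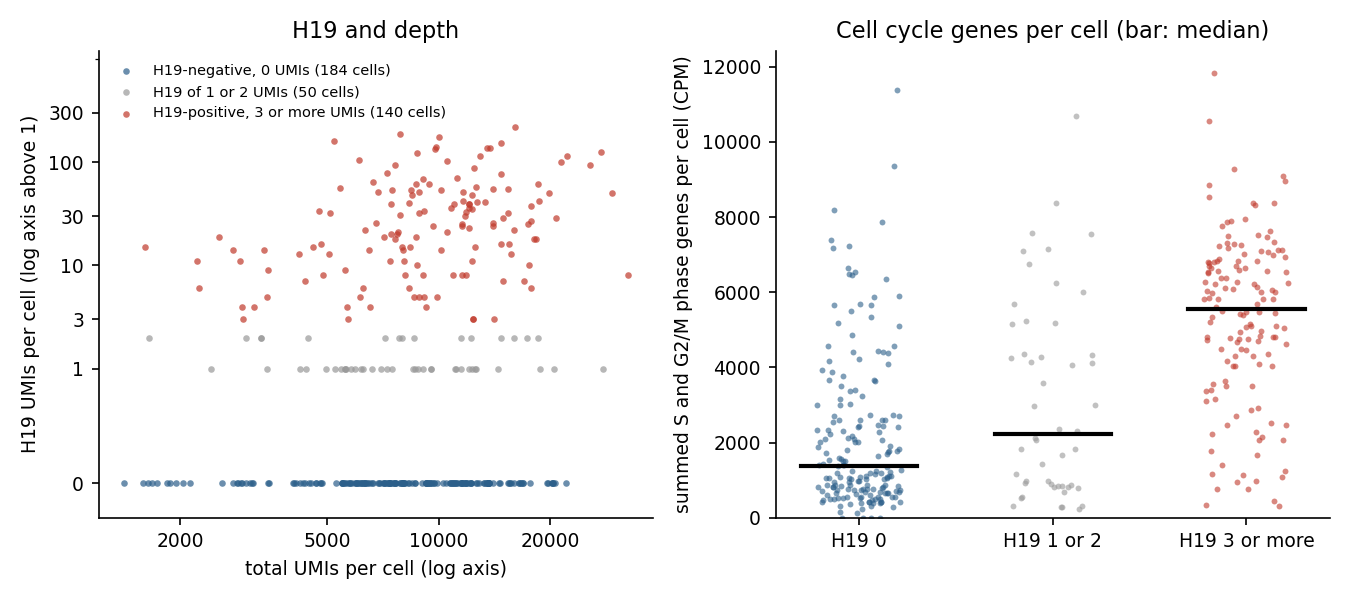
Left, H19 UMIs per cell (log axis above 1) against total UMIs per cell (log axis) for the 374 trophectoderm cells, 1 point per cell. Right, the summed S and G2/M phase genes of each cell in CPM by H19 class, with the median as a bar; the medians are 1365, 2217 and 5555 CPM for 0, 1 or 2, and 3 or more H19 UMIs.

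Both sides expressed trophectoderm markers that the rule did not use. Cdx2, a transcription factor of the trophoblast lineage, was at 280 CPM (CPM, the UMIs of a gene over all UMIs of a side, scaled to the same total for every profile) in H19-positive and 309.5 CPM in H19-negative cells, Tfap2c, another, at 168 and 240 CPM, and the tight junction gene Cldn7 at 587 and 689 CPM. A wider list of 16 trophectoderm identity genes was lower as a sum in H19-positive cells, at 6472 against 7921 CPM, and stood at 716 CPM in epiblast and 1721 CPM in primitive endoderm cells. Of its 14 members with a mean of at least 30 CPM over the sides, 10 had log2 ratios of H19-positive over H19-negative cells below 0, with a median of -0.51. Aqp9, Dab2, Gata2 and Krt7 were lower by 2-fold or more, and 0 members were higher by as much, where 3.89% and 4.00% of all genes compared were. Of the 4 genes of the rule itself, Dppa1 stood at 741 CPM in H19-positive and 1520 CPM in H19-negative cells, Tspan8 at 1126 and 2156, Gata3 at 513 and 881, and Krt18 at 2008 and 2282. Markers of other cell types were low: of primitive endoderm markers outside the rule the sum was 235 and 220 CPM, against 22031 CPM in primitive endoderm cells. Epiblast markers outside the rule summed to 643 and 266 CPM, against 2137 CPM in epiblast cells, and Dnmt3b made up most of that sum. Blood and leukocyte markers summed to 0 and 4.86 CPM, fibroblast markers to 0.671 and 0 CPM, and cumulus cell markers were at 0 on both sides. Uterine epithelium markers gave 1992 and 2045 CPM, nearly all of it Epcam, which trophectoderm expresses itself. Scrublet, a doublet caller, marked 1 of the 140 H19-positive and 0 of the 184 H19-negative cells.

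Across the transcriptome, most genes stood within 2-fold of each other on the sides and a few percent differed by 2-fold or more. Of 4676 genes with a mean of at least 30 CPM over the sides, 187 stood higher by 2-fold or more in H19-positive cells (4.00% of those compared) and 182 lower by as much (3.89%), on a log2 scale with 5 CPM added. The median log2 ratio over these genes was 0.02, with quartiles of -0.30 and 0.36. With total UMIs matched the counts were 181 and 167, and in thinned cells 276 and 255. Leaving out barcodes with under 1% mitochondrial UMIs gave 197 and 183.

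Msx1, a homeobox transcription factor induced by BMP signals, had the highest ratio of the named genes. It was found at 162 CPM in H19-positive and 7.89 CPM in H19-negative cells, a log2 ratio of 3.70 (3.56 to 5.29; here and below the range is the exact 95% interval of the ratio of counts with no CPM added). In thinned cells an Msx1 UMI was present in 26.5% of H19-positive cells (19.2 to 34.9) and in 1.79% of H19-negative cells (0.370 to 5.13), and the single cells ranged from 0 to 6 UMIs and from 0 to 1 UMI. Epiblast cells gave 1.27% and primitive endoderm cells 0.278% by the same count, the level of the H19-negative cells. Msx1 was thus detected mostly in H19-positive cells, and in a minority of them at this depth.

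Igf2 was higher in the H19-positive cells as well, although the genes are expressed from opposite parental chromosomes. It stood at 376 CPM against 89.2 CPM, with 138 CPM in the cells of 1 or 2 H19 UMIs, a log2 ratio of 2.01 (1.81 to 2.35). Thinned cells with an Igf2 UMI made up 61.4% of H19-positive cells (52.5 to 69.7) and 25.6% of H19-negative cells (19.2 to 32.9), against 2.11% of epiblast and 17.8% of primitive endoderm cells. Of the 236 trophectoderm cells with an Igf2 UMI as sequenced, 49.6% were H19-positive, and of the 138 without one, 16.7%. The Igf2 ratio was 2.24 with matched total UMIs. The annotation places Gm49394 over Igf2 on its strand and Igf2os opposite to it, and the sources used here do not say how shared reads were counted. The other measured genes of distal chromosome 7 did not follow: Osbpl5 had a log2 ratio of -1.69 (-2.44 to -1.35), Ctsd -0.38 and Nap1l4 -0.03. The last 2 values moved with thinning. Thinned H19-positive and H19-negative cells held means of 0.371 and 0.565 Nap1l4 UMIs, and of 0.136 and 0.143 Ctsd UMIs. Phlda2, which restrains placental growth, was at -1.05 (-1.69 to -0.66) over all cells but at -0.21 in thinned cells, where 3.03% of H19-positive and 4.76% of H19-negative cells had a UMI of it and the highest cells of the sides held 10 and 7. Receptors and binding proteins of the IGF axis were near equal, Igf2r at 73.8 and 77.7 CPM, Igf2bp1 at 231 and 199 CPM and Igf2bp2 at 417 and 482.5 CPM.

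The other genes with the highest ratios had mixed functions. Of the highest genes chosen by rank, Msx1 included, all but Ccna2 were under 30 CPM in H19-negative cells. They passed the level filter through the H19-positive side alone. Ccna2, the cyclin of S phase and mitotic entry, was at 321 CPM against 71.0 CPM (2.10, 1.88 to 2.48), and a thinned UMI of it was seen in 55.3% against 13.7% of cells. Cdc6, which licenses replication origins, was at 104 against 21.2 CPM, and the mitotic kinase gene Pbk at 95.2 against 11.5 CPM. Phlda1, a gene induced by ERK, stood at 89.9 against 10.3 CPM (2.63, 2.39 to 3.94), and Spry2, a feedback inhibitor of the same pathway, at 90.6 against 18.2 CPM. Rhox5 and Utf1, transcriptional regulators of early embryonic cells, were at 107 and 119 CPM against 21.8 and 25.5 CPM. The remaining names chosen by rank were Cald1, an actin-binding protein, Unc5b, a netrin receptor, Mtap, which salvages methionine, the endosomal sorting nexin Snx10, the fatty acid elongase Elovl5, and Bex1, with log2 ratios from 2.07 to 2.59.

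The lowest ratio of a named gene belonged to BC051665, at 83.2 CPM in H19-positive and 1890 CPM in H19-negative cells (-4.43, -4.78 to -4.25). Thinned H19-negative cells held from 0 to 39 UMIs of it with a median of 2, and 63.7% (55.9 to 71.0) had at least 1. H19-positive cells held from 0 to 7 with a median of 0, and 8.33% (4.23 to 14.4) had at least 1, against 0% of 237 epiblast cells (which allows a share of up to 1.27%) and 1.11% of primitive endoderm cells. The ranges overlapped from 0 to 7 UMIs, and many H19-negative cells had no UMI of it either.

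Among the other low ratios, Dmkn, a secreted protein of epithelia, was at 8.72 against 151 CPM, and Slc40a1, the iron exporter ferroportin, at 2.01 CPM (from 3 UMIs) against 68.0 CPM. Reep5, which shapes tubules of the endoplasmic reticulum, was at 87.2 against 535 CPM (-2.55, -2.89 to -2.35) and its relative Reep1 at 11.4 against 62.5 CPM. The clathrin assembly gene Snap91 stood at 18.8 against 159 CPM. S100a16 and S100a13, which bind calcium, were at 14.1 and 43.6 CPM against 110 and 229 CPM, and Qsox1, an enzyme that forms disulfide bonds in the secretory pathway, at 58.4 against 275 CPM. Further names chosen by rank were Krt19, Aldh3b2, Efnb1 and the linker histone gene Hist1h1c, with log2 ratios from -2.14 to -1.999. Of the lowest genes chosen by rank, all but BC051665, Reep5, S100a13 and Qsox1 were under 30 CPM in H19-positive cells. These passed the level filter through the H19-negative side alone. All 28 genes chosen by rank had an intermediate level in the cells of 1 or 2 H19 UMIs, which entered neither side. These genes were chosen for a wide gap between the sides. A level inside that gap in other trophectoderm cells is therefore likely from the choice alone, and is not separate evidence.

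**Figure D2:**
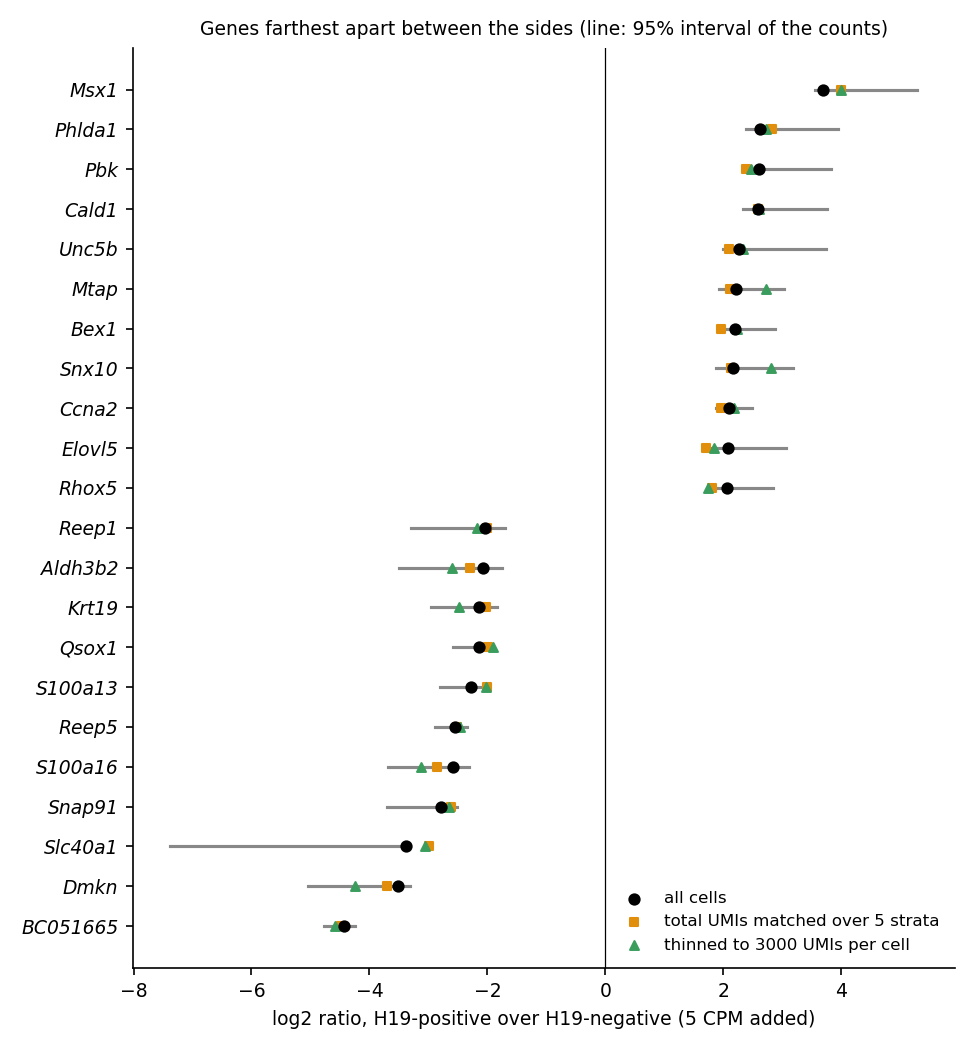
Log2 ratio of H19-positive over H19-negative trophectoderm (5 CPM added) for the 11 highest and 11 lowest genes chosen by rank. Black points use all cells, with the 95% interval of the counts as a line; squares match total UMIs over 5 strata and triangles use cells thinned to 3000 UMIs. The choice of genes asked for 1.5-fold in the squares and triangles, so that these lie on the side of the black points was fixed by it; the black points run from -4.43 (BC051665) to 3.70 (Msx1).

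Genes of the division cycle were higher in H19-positive cells as a group. All 14 measured S phase genes had ratios above 0, and 9 reached 2-fold, where 4.00% of all genes compared did. The median was 1.21 (median interval 0.98 to 1.54) beside 0.02 over all genes compared. Over all 15 listed S phase genes, those under the level filter included, the median was 1.19. Rrm2, a subunit of the enzyme that makes deoxynucleotides, was at 712 against 226 CPM, and the helicase subunits Mcm3 and Mcm5 were at 113 and 273 CPM against 29.7 and 87.4 CPM. Among 16 measured genes of G2 and M phase, 16 lay above 0 and 11 reached 2-fold. The median was 1.17, and 1.23 over all 18 listed. In the S phase and in the G2/M list, 3 measured members each passed the level filter through the H19-positive side alone. Cdk1, the kinase of mitotic entry, was at 288 against 69.8 CPM (1.97, 1.75 to 2.36), Ube2c, which marks cyclins for destruction, at 325 against 91.0 CPM, and Birc5 at 683 against 250 CPM. The cycle genes Cdt1, Gmnn and Ccne1 had ratios of 1.01 (0.89 with matched total UMIs), 1.34 and 1.55. Of these, Ccne1 passed the level filter through the H19-positive side alone.

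Per cell, the summed S and G2/M phase genes had a median of 5555 CPM in H19-positive cells (quartiles 4047 to 6808), 2217 CPM in cells of 1 or 2 H19 UMIs and 1365 CPM in H19-negative cells (728 to 2729). The ranges overlapped, from 320 to 11831 CPM and from 0 to 11371 CPM. Of the 122 trophectoderm cells at or below the H19-negative median, 9.02% (4.59 to 15.6) were H19-positive, against 51.2% (44.8 to 57.5) of the 252 cells above it. Among the cells above it alone, 129 H19-positive and 92 H19-negative, Msx1 (4.14), Igf2 (2.07), BC051665 (-4.23) and Psap (-1.06) differed by 2-fold or more. There, 112 genes in place of 187 were 2-fold higher. This cut drops cells low in cycle genes but does not make the sides equal in them, as the upper quartiles of 6808 and 2729 CPM show. Msx1 and BC051665 were chosen for a wide gap in these same cells, so their ratios here are not separate evidence.

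The promoters of Mcm3, Cdk1 and Ube2c are shown because these genes of replication and mitosis stood higher together. Each is 250 bases before to 50 bases after the start of transcription, from RefSeq (GRCm38.p6), written 5′ to 3′ on the gene's strand: Mcm3 at chr1:20820263-20820562 (minus), Cdk1 at chr10:69352863-69353162 (minus) and Ube2c at chr2:164769679-164769978 (plus). Capitals mark, on both strands, the E2F words TTTCCCGC, TTTCGCGC, TTTGCCGC and TTTGGCGC, the cell cycle homology region TTTGAA and the CCAAT box; neighbouring or overlapping matches run together, as in the palindrome of CCAAT matches in Ube2c.
Mcm3: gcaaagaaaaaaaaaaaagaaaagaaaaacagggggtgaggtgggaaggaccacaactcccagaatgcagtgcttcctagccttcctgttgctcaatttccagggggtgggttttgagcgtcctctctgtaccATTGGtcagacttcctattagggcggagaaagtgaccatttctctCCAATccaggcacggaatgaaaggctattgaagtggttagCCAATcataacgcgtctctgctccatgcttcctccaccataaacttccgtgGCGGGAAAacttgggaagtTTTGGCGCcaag
Cdk1: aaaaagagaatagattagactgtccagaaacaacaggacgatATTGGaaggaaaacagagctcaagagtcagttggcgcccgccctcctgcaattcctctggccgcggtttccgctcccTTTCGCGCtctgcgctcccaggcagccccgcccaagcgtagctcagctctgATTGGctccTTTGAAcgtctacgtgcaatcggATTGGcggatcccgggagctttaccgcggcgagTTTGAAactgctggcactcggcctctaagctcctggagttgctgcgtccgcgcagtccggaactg
Ube2c: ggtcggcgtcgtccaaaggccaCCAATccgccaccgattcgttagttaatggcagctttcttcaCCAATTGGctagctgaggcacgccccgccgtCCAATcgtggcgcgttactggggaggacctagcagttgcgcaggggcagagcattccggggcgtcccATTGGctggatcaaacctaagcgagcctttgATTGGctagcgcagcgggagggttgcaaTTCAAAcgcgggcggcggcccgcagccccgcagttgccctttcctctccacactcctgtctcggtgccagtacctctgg

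Mcm3 held 2 E2F words and 3 CCAAT boxes, Cdk1 held 1 E2F word, 2 matches to TTTGAA and 3 CCAAT boxes, and Ube2c held 1 match to TTTGAA and 6 CCAAT boxes. Of 14 promoters of S phase genes in the table, 5 (35.7%) had an E2F word, which 4.72% of the 4488 promoters of genes above the level filter and 2.26% of all 32851 promoters of this length hold. Of 16 promoters of G2/M genes, 11 (68.75%) had TTTGAA and 14 (87.5%) a CCAAT box, which 11.7% and 37.7% of the promoters of genes above the filter and 17.9% and 37.4% of all promoters hold. Of the 14 promoters found for 11 of the genes with the highest ratios, 1 had an E2F word, 0 had TTTGAA and 6 had a CCAAT box. A match describes the letters of the window and not a bound site.

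Genes known from mural trophectoderm were lower in H19-positive cells. All 8 measured members had ratios below 0 and 6 were past 2-fold, where 3.89% of all genes compared were. The median was -1.29 (median interval -1.47 to -1.05). Krt19, Krt7 and Slco2a1 passed the level filter through the H19-negative side alone, and over all 12 listed genes the median was -0.86. Gata2, a transcription factor of differentiating trophoblast, was at 224 against 509 CPM (-1.17, -1.37 to -0.9997; -0.94 with matched total UMIs and -0.89 in thinned cells), Ndrg1 at 312 against 836 CPM, Basp1 at 516.5 against 1151 CPM, and the prostaglandin carrier Slco2a1 at 18.8 against 60.1 CPM. The keratins were unequal in this respect, Krt19 at 22.1 against 115 CPM and Krt7 at 24.2 against 83.8 CPM but Krt8 at 234 against 287 CPM. A minority of cells held Krt19, 12.1% of H19-positive and 16.8% of H19-negative cells as sequenced, and 3.03% and 11.9% of thinned cells. H19-negative cells had 250 CPM of it in the deepest stratum, against 32.3 to 68.6 CPM in the others. Later trophoblast genes were mostly below the level filter, and Plac1, the 1 that passed of 16, was at 44.3 against 180 CPM.

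The polar list was mixed. Of 13 measured members, 4 reached 2-fold towards H19-positive cells and 1 the other way, where 4.00% and 3.89% of all genes compared did. The median was 0.40 (median interval 0.20 to 0.62), or 0.29 over all 20 listed. Of the higher members, Utf1 and Rhox5 passed the level filter through the H19-positive side alone. Utf1, Rhox5, Gsto1 (964 against 380 CPM) and Elf5 (311 against 152 CPM; 1.01, 0.81 to 1.26; 0.35 in the cells with a Y-linked and no Xist UMI) were the higher members, and Tinagl1, a secreted matrix protein, the lower one at 415 against 919 CPM. Cdx2 was at 280 and 309.5 CPM (-0.14, -0.34 to 0.04), an interval that includes no difference, and its UMI was seen in 55.3% and 60.1% of thinned cells. Eomes was at 367 and 585 CPM (-0.67, -0.83 to -0.52), but its ratio was only -0.0748 among the cells with cycle genes above the H19-negative median. Fgfr2, the receptor for FGF4 in trophectoderm, was at 319 and 337 CPM (-0.08, -0.26 to 0.10). In the cells with an Xist and no Y-linked UMI the polar median was -0.0397, so its direction is not stable. H19 content showed no steady order over the summed Cdx2, Eomes and Elf5 UMIs: with 1 to 4, 5 to 14 and 15 or more of them, 36.8%, 45.0% and 39.7% of thinned cells had an H19 UMI, with overlapping intervals. These classes were cut on UMIs as sequenced and had medians of 5591, 8986 and 14371 total UMIs. Depth and the level of these factors therefore cannot be told apart here. Of the 6 cells with none of these UMIs, 0 were H19-positive, which allows a share of up to 50%.

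**Figure D3:**
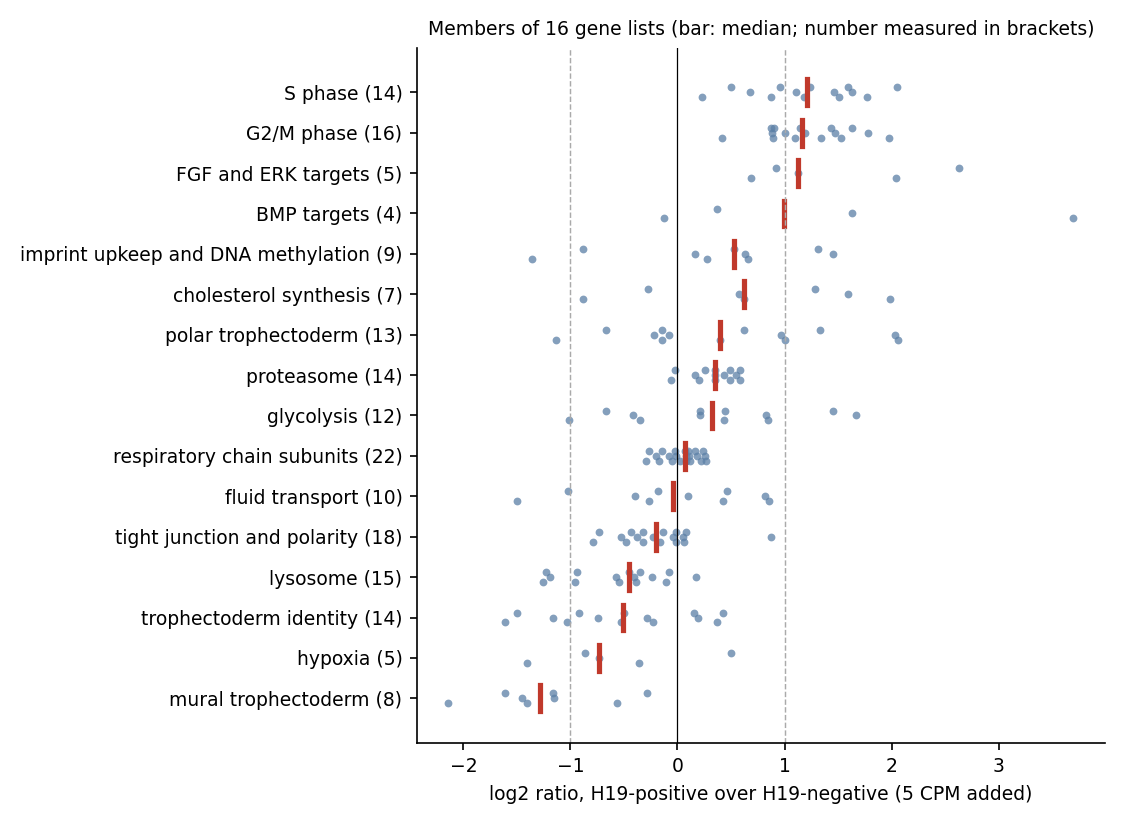
Log2 ratios of H19-positive over H19-negative cells (5 CPM added) for the measured members of 16 gene lists, 1 point per gene, with the list median as a bar and dashed lines at 2-fold. S and G2/M phase genes lie above 0 and mural trophectoderm genes below 0, and respiratory chain and tight junction genes stay between the dashed lines.

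Some targets of growth factor signals stood higher. Dusp6, a phosphatase that removes phosphate from ERK, was at 262 against 117 CPM (1.13, 0.91 to 1.42). It was 1 of 13 listed FGF and ERK targets, of which 5 passed the level filter and 3 of those were at least 2-fold higher (4.00% of all genes compared were). The other two, Phlda1 and Spry2, passed the filter through the H19-positive side alone, and the list median was 1.13 over the 5 and 0.58 over all 13. Of 11 BMP targets 4 passed; Msx1 and Id3 (81.8 against 23.1 CPM) were at least 2-fold higher, both passing through the H19-positive side alone, and the median was 0.999 over the 4 and 0.37 over all 11. Among the other BMP targets, Id2 was at 2004 against 1551 CPM (0.37, 0.29 to 0.45) and Smad7 at 72.4 against 79.5 CPM. Ezr, the linker of microvilli to actin, was at 523 against 155 CPM (1.72, 1.54 to 1.96), while Actb, the main actin gene, was at -0.07.

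Lysosomal genes were on the low side. Of 15 measured members, 14 lay below 0, Psap, Ctsa and Glb1 by more than 2-fold (Glb1 by -0.90 with matched total UMIs), and the median was -0.46, or -0.44 over all 20 listed. Psap, the precursor of the saposins that help to degrade sphingolipids, was at 3843 against 9164 CPM (-1.25, -1.30 to -1.21). In thinned cells it ranged from 1 to 34 UMIs with a median of 11 in H19-positive and from 0 to 83 with a median of 25 in H19-negative cells, so the sides overlapped but their middle ranges, 7.75 to 16 and 17 to 33, did not. Of 12 listed hypoxia genes 5 passed the level filter, and 4 of those were below 0, with a median of -0.73, but over all 12 the median was -0.045. Of 12 measured glycolysis genes, 2 were at least 2-fold higher, Pkm and Ldha of its last steps (160 and 130 CPM against 46.7 and 44.3 CPM), and 1 lower, the glucose transporter gene Slc2a3 at 467 against 947 CPM (-1.01; -0.87 in thinned cells). Over all genes compared, 4.00% were 2-fold or more higher and 3.89% lower by as much. The glycolysis median was 0.32, while the summed level was 3300 CPM in H19-positive and 3439 CPM in H19-negative cells.

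Genes of DNA methylation were unequal. Dnmt3b, a de novo methyltransferase, stood at 589 against 234 CPM (1.31, 1.16 to 1.51) and Uhrf1, which brings Dnmt1 to replicating DNA, at 88.5 against 29.1 CPM. Uhrf1 passed the level filter through the H19-positive side alone. The median of the list of imprint upkeep and DNA methylation was 0.53 over 9 measured members and 0.28 over all 15 listed. Tet2, an enzyme that oxidises methylcytosine, was at 89.9 against 238.5 CPM (-1.36, -1.70 to -1.12). Trim28, Ctcf and Dnmt3l lay between 0.28 and 0.63. The lists of imprinted genes outside H19 had medians near 0. Of 7 measured maternally expressed genes, Ppp1r9a was past 2-fold on the high side and 2 on the low side, and the median was -0.09. Ppp1r9a passed the level filter through the H19-positive side alone, and 1 member through the H19-negative side alone. Of 5 paternally expressed genes only Igf2 was past 2-fold, on the high side, with a median of 0.15. Over all genes compared, 4.00% were 2-fold or more higher and 3.89% lower by as much.

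Tight junction and polarity genes stayed within 2-fold. Of 18 measured, 0 were 2-fold higher or lower, where 4.00% and 3.89% of all genes compared were, but 14 lay below 0, with a median of -0.20. Of 22 respiratory chain subunits likewise 0 were 2-fold apart, and 13 lay above 0, with a median of 0.07. Of the 10 measured fluid transport genes, the water channels Aqp9 (93.2 against 273 CPM) and Aqp3 (199 against 410 CPM) were at least 2-fold lower, while Atp1b1, a subunit of the sodium pump, was at 537 against 399 CPM. Cholesterol synthesis had 3 of 7 measured members at least 2-fold higher, Cyp51, Sqle and Fdps (0.94 for Fdps in thinned cells), with a median of 0.62. Of the 7, 2 passed the level filter through the H19-positive side alone. In the amino acid stress list 3 of 8 measured members were at least 2-fold higher, with a median of 0.38: Psat1 and Phgdh, enzymes of serine synthesis, at 436 and 49.0 CPM against 129 and 12.7 CPM, and the carrier Slc7a5 at 90.6 against 29.1 CPM (0.87 in thinned cells). Phgdh and Slc7a5 passed the level filter through the H19-positive side alone.

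Several of these levels were graded with H19 content. Cells were grouped into 0, 1 to 2, 3 to 9, 10 to 29 and 30 or more H19 UMIs (184, 50, 32, 46 and 62 cells) and thinned to 3000 UMIs. The S phase sum was 1139, 1646, 2057, 2618 and 2785 CPM over these groups, and the G2/M sum 972, 1681, 2333, 2561 and 2892 CPM. The mural sum ran the other way, 4560, 3354, 2874, 2561 and 2312 CPM, and so did the lysosome sum, from 14700 to 7054 CPM. Psap alone held 8968 CPM of the lysosome sum in the first group and 3253 CPM in the last, so most of that fall lay in Psap. Igf2 stood at 97.2, 153, 287, 333 and 672 CPM, and BC051665 at 1637, 299, 195, 56.9 and 5.38 CPM. The intervals of the first and the last group did not overlap for any of these, while neighbouring groups often did. The first group is the H19-negative side, and the last is part of the H19-positive side. The lists and genes shown had already been found to differ between the sides. The gap between the first and the last group thus repeats that comparison, and the intervals cover counting error only. Median total UMIs before thinning were 7978, 7893, 8456.5, 8520.5 and 11426.5, so the highest group was also the deepest.

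**Figure D4:**
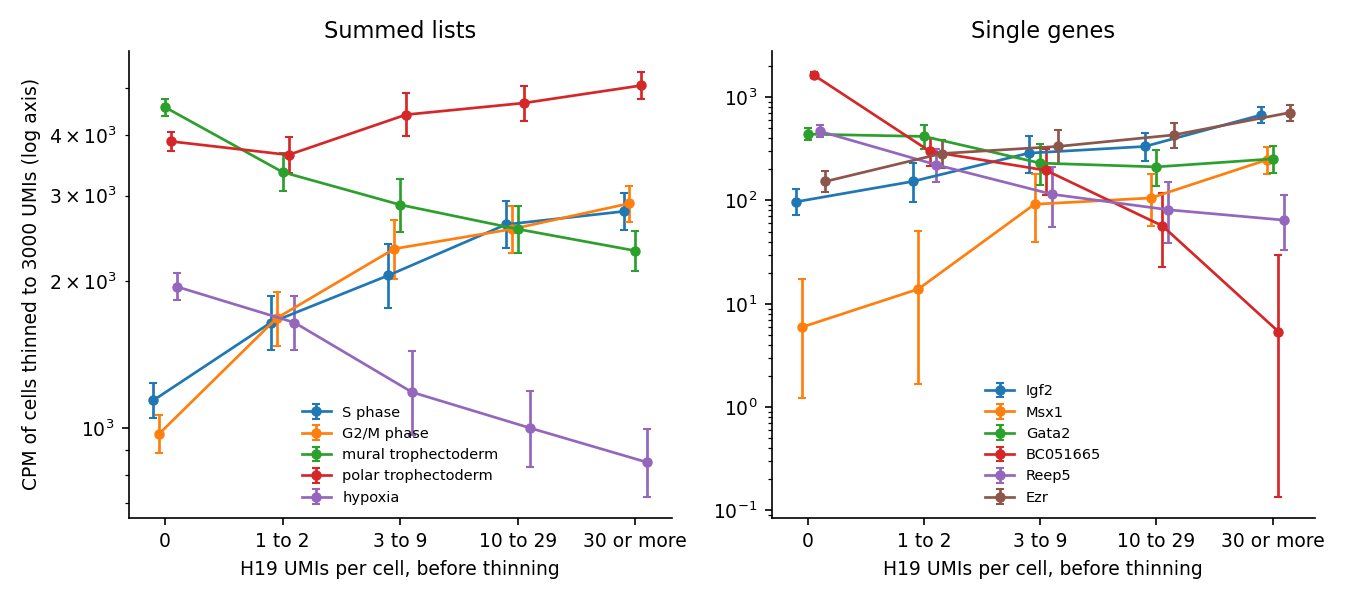
CPM (log axis) of cells thinned to 3000 UMIs, by H19 UMIs per cell before thinning, for 5 summed gene lists (left) and 6 genes (right), with exact Poisson 95% intervals as bars. S and G2/M phase sums, Igf2, Msx1 and Ezr stand higher towards the right, and mural and hypoxia sums, BC051665 and Reep5 lower.

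Sex of the embryo was looked at because pooled embryos differ in it. Of 123 trophectoderm cells with a Y-linked and no Xist UMI, 32.5% (24.4 to 41.5) were H19-positive, and of 135 with an Xist and no Y-linked UMI, 35.6% (27.5 to 44.2). The 113 cells with neither mark had the highest share of these, 44.2% (34.9 to 53.9), at a median of 6449 UMIs against 10500 and 9254, and in thinned cells an H19 UMI was seen in 37.2%, 37.4% and 51.6% of the same classes. A further 3 cells had both marks. Xist, the RNA that silences an X chromosome and overlaps its antisense gene Tsix, was at 81.2 CPM in H19-positive and 203 CPM in H19-negative cells (-1.27, -1.63 to -1.02; -0.40 among the 53 and 48 cells with at most 10% mitochondrial UMIs), whereas Y-linked Ddx3y was at 40.9 and 43.1 CPM. Within the Y-linked and the Xist cells, the mural median was -1.37 and -1.14, the S phase median 1.20 and 1.02, Igf2 2.27 and 1.54, and Msx1 3.35 and 3.82.

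The same split was made outside trophectoderm. Blastocyst primitive endoderm had only 19 cells with 3 or more H19 UMIs and was not compared. In the embryoid library, cells that met the mirrored primitive endoderm rule numbered 2678, of which 289 had 3 or more H19 UMIs and 2181 had 0, at medians of 5706 and 5142 total UMIs. Of 5675 genes compared there, 0 (0%) reached 2-fold towards the cells with H19 and 1 (0.0176%) was past 2-fold in the other direction. That gene was Igf2, at 1005 against 2346 CPM (-1.22, -1.29 to -1.16), the opposite direction to blastocyst trophectoderm. Cell cycle genes were slightly higher in the cells with H19 there, the same direction as in trophectoderm but by far less. The S phase median was 0.11 and the G2/M median 0.23, beside -0.0075 over all genes compared there. Ccna2 was at 367 and 306 CPM and Cdk1 at 329 and 280 CPM, and the mural list had a median of -0.13. Cell type, library and depth differ together between these comparisons and cannot be told apart.

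**Figure D5:**
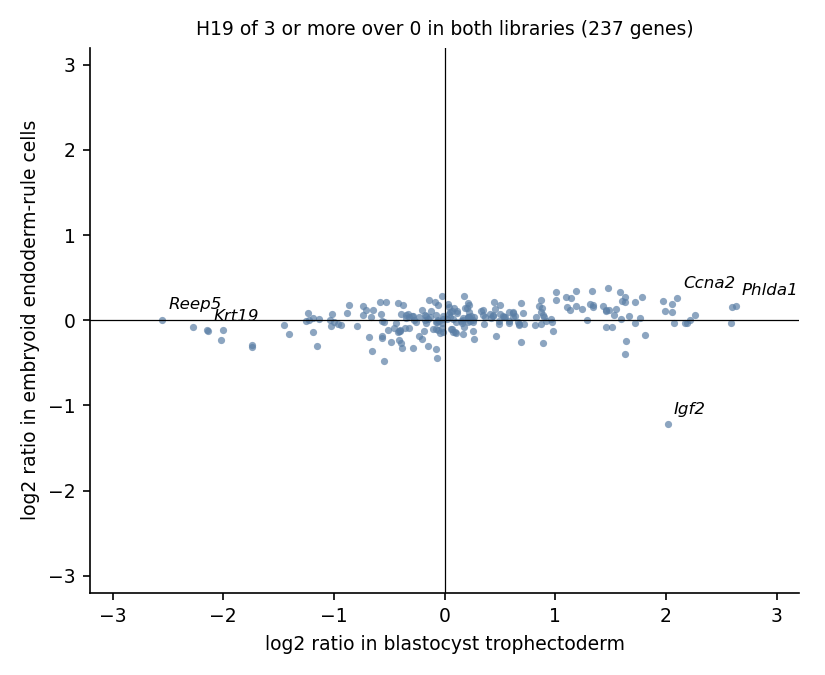
Log2 ratio of cells with 3 or more H19 UMIs over cells with 0 (5 CPM added) in blastocyst trophectoderm (x axis) and in embryoid cells that meet the primitive endoderm rule (y axis), for the 237 named and listed genes with a mean of at least 30 CPM in both. Apart from Igf2 at -1.22, the embryoid ratios lie between -0.47 and 0.38.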

How the data were processed

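The deposited files give raw counts: per the file headers, 1 UMI count for each gene symbol and cell barcode, with no normalization. Per the submitters' processing notes, reads were handled with featureCounts 1.6.4 (Subread), STAR 2.7.1a on mm10, UMI-tools 1.0.1 and bcl2fastq 2.19.1.403. The sources used here give no settings, annotation or rule for calling cells. Per the labels' protocols, TrypLE-dissociated cells, 6000 per library, went into the BD Rhapsody whole transcriptome kit. The blastocyst file holds 11047555 UMIs and the embryoid file 28923930 UMIs, and 9 barcodes occur in both, 1 of them a trophectoderm cell and 0 H19-positive.

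For each side, the UMIs of its cells were added up and scaled to CPM. Ratios have 5 CPM added and genes a mean of at least 30 CPM. Intervals are exact 95% intervals (conditional binomial for ratios, Clopper-Pearson for shares, Poisson for levels). Only the ratio intervals were tested on simulated data. These were Poisson counts drawn from 1 pooled profile with no spread between cells, so the test checks the calculation and not the coverage in real cells. For thinning (seed 1) 8 H19-positive and 16 H19-negative cells were too shallow. Matching used 5 strata of total UMIs. Named genes are the 14 highest and 14 lowest ratios among genes seen in 10% of cells of the higher side and at least 1.5-fold apart in strata and thinned cells, without H19, rule genes, mitochondrial genes and Gm or Rik models, and members of 44 gene lists (532 of 583 genes matched). A list's interval is the median of its members' bounds. 1 gene chosen by rank is not reported here. The members and lists were chosen with earlier results of these data known. Scrublet marked 17 kept barcodes (1.55%), which stayed in. Python 3.11.15, numpy, scipy, pandas and scanpy were used.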

Additional observations from a re-analysis of the deposited data

Results flagged for a closer look

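Igf2 lay in opposite directions in the libraries. Its log2 ratio of cells with 3 or more H19 UMIs over cells with 0 was 2.01 in blastocyst trophectoderm (376 against 89.2 CPM) and -1.22 in embryoid cells that met the primitive endoderm rule (1005 against 2346 CPM). The difference between these ratios was not tested, since each comes from 1 library, and cell type, library and depth differ together.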

How the results depend on the processing

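Across 15 alternative settings and 4 chosen after seeing the data, all 28 genes chosen by rank stayed at least 2-fold apart in their direction, in 531 of 531 values; their choice had asked for 1.5-fold in the matched and the thinned cells. Numbers of genes past 2-fold depended on the settings: in place of 187 higher and 182 lower, there were 353 and 366 with at most 10% mitochondrial UMIs (53 against 48 cells), 112 and 106 with 20 CPM added, 317 and 305 at a mean of at least 10 CPM, and 65 and 70 at 100 CPM. Among cells with cycle genes above the H19-negative median, chosen after seeing the data, 112 genes were higher. The mural median, -1.29, was -1.65 with at most 10% mitochondrial UMIs. The polar median, 0.40, is the weakest of the results: 1.12 with at most 10% mitochondrial UMIs, 0.16 at a mean of 100 CPM, and -0.0397 in the 48 against 74 cells with an Xist and no Y-linked UMI, where its direction turned. The cause of these moves was not tested, beyond the fewer cells or genes. Cdx2 turned sign in 1 of 19 settings, and Elf5 was past 2-fold in 11 of 19, Gata2 in 16 of 19 and Xist in 16 of 17. Id3, at 1.63, was at 2.76 in thinned cells. Another scaling, the median of ratios, shifted all genes by 0.02. No paired analysis was possible because each group has 1 library and both sides lie in the same one. Depth limits genes under 30 CPM, and shares of cells below those at 3000 UMIs.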

Other observations

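Some listed genes of other functions also differed between the sides. The proteasome genes were slightly higher in H19-positive cells: of 14 measured, 12 lay above 0 and 0 were past 2-fold, with a median of 0.35, Psmb2 at 500 against 341 CPM and Psmb4 at 459.5 against 306 CPM being among them. Serpine2, an inhibitor of serine proteases, was at 63.0 against 222 CPM (-1.74, -2.16 to -1.49), and the surface enzyme Alppl2, an alkaline phosphatase, at 28.2 against 100 CPM, a ratio of -1.66 that was -2.30 in thinned cells. H2-D1, a class I antigen presenting molecule, was at 229 against 365 CPM (-0.66, -0.86 to -0.47). Sparc, a matrix protein that primitive endoderm also expresses, was at 113 against 28.5 CPM, while P4ha2, on the same marker list, was at 14.1 against 58.9 CPM. Sparc passed the level filter through the H19-positive side alone, and Alppl2 and P4ha2 through the H19-negative side alone.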
